A study of Mus musculus with 16 samples.

Results

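The cytochrome c oxidase subunit paralogs are 10 genes that encode alternative forms of nuclear subunits of complex IV, the last enzyme of the mitochondrial respiratory chain. They were taken by name from the 51060 genes with a matched transcript, and all 10 were kept among the 15632 genes with enough counts to be tested. Their RNA was measured in brown adipose tissue (BAT) of mice of both sexes, 7 weeks old, fed ad libitum at room temperature. WT mice carried floxed Opa1 alleles without Cre, and OPA1 brown adipocyte knockout (OPA1 BKO) mice carried the same alleles with a Cre driven by the Ucp1 promoter, all on a C57Bl/6J background. OPA1 is a GTPase of the inner mitochondrial membrane that fuses membranes and shapes cristae. Each of the 4 groups of genotype and sex held 4 mice, 16 in all, and 1 library was made from each mouse. The Ucp1 promoter directs Cre to brown adipocytes, so other cells of the tissue keep Opa1, and the libraries hold RNA of all cells in the tissue piece.

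Libraries held 13607283 to 23114534 estimated counts. Opa1 itself was at 152 to 210 CPM (counts scaled to library size with TMM correction) in WT mice, and OPA1 BKO mice had 17.9 to 36.9 CPM, and Xist and Y-linked genes matched the labelled sex in 16 of 16 mice. Transcripts of the mitochondrial genome took 23.3% to 30.5% of counts in WT mice, against 4.44% to 9.02% after OPA1 deletion. As that share shrank, the other genes together took a larger part of the whole library. Differences below are therefore given on a scale normalized by TMM, a method that sets the bulk of genes equal between libraries. On that scale the median log2 fold change of all genes was 0.01. Brown adipocyte markers such as Ucp1, Cidea and Adipoq were abundant in every library. The sum of 14 such markers was lower in OPA1 BKO libraries, at 9843 to 16036 CPM, against 16092 to 23464 CPM in WT libraries. The 14 did not change as one, with 4 called lower, 3 called higher and 7 not called. Over all genes, 20.2% were called lower and 20.8% higher. Skeletal muscle markers varied much more between mice, from 50.9 to 23990 CPM in sum, and their relation to the paralogs is given with Cox6a2.

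Complex IV passes electrons from cytochrome c to oxygen and pumps protons across the inner membrane. Its catalytic core is encoded by mitochondrial DNA, and the nuclear subunits that surround the core assemble, stabilize and regulate it. Several of these subunits exist as a form made in nearly all tissues and a form restricted to some. Cox4i1, Cox6a1, Cox7a2 and Cox8a encode the ubiquitous forms, and Cox6b1, the somatic form of a subunit with a testis counterpart, was grouped with them. Cox7a2l encodes a relative of COX7A2 known from supercomplexes of complex III and complex IV, and its role in the mice used here was not measured. Among the restricted forms, Cox6a2, Cox7a1 and Cox8b are known from heart and skeletal muscle, with Cox7a1 and Cox8b also long used as markers of brown fat, and Cox4i2 is known from lung and vascular mural cells and from the response to low oxygen.

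The ubiquitous paralogs and the abundant restricted paralogs fell together in OPA1 BKO BAT relative to the typical gene, whereas Cox6a2 did not, and all of these 8 falls turned to positive values on the TPM scale, which takes levels as a part of the whole library. Of the 10 paralogs, 8 were lower, against 20.2% of all genes tested, and the median log2 fold change of the 10 was -0.56. They were Cox4i1, Cox6a1, Cox6b1, Cox7a2, Cox7a2l, Cox8a, Cox7a1 and Cox8b. Cox4i2 (log2 fold change -0.29 ± 0.13 SE, adjusted p = 0.098) and Cox6a2 (1.99 ± 0.79 SE, adjusted p = 0.053) did not pass the test. No paralog was called higher by edgeR, against 20.8% of all genes (5.07% lay higher in every OPA1 BKO than in every WT mouse, and no paralog did), although Cox6a2 had an unadjusted p of 0.022 and was called higher by DESeq2 (adjusted p = 0.040). Without female 2, female 9 or female 10, edgeR called it as well (adjusted p = 0.042, 0.018 and 0.037), and without male 7 or female 10 it called Cox4i2 (adjusted p = 0.048 and 0.046). Levels of each mouse stand in the plot of the 10 paralogs.

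**Figure D1:**
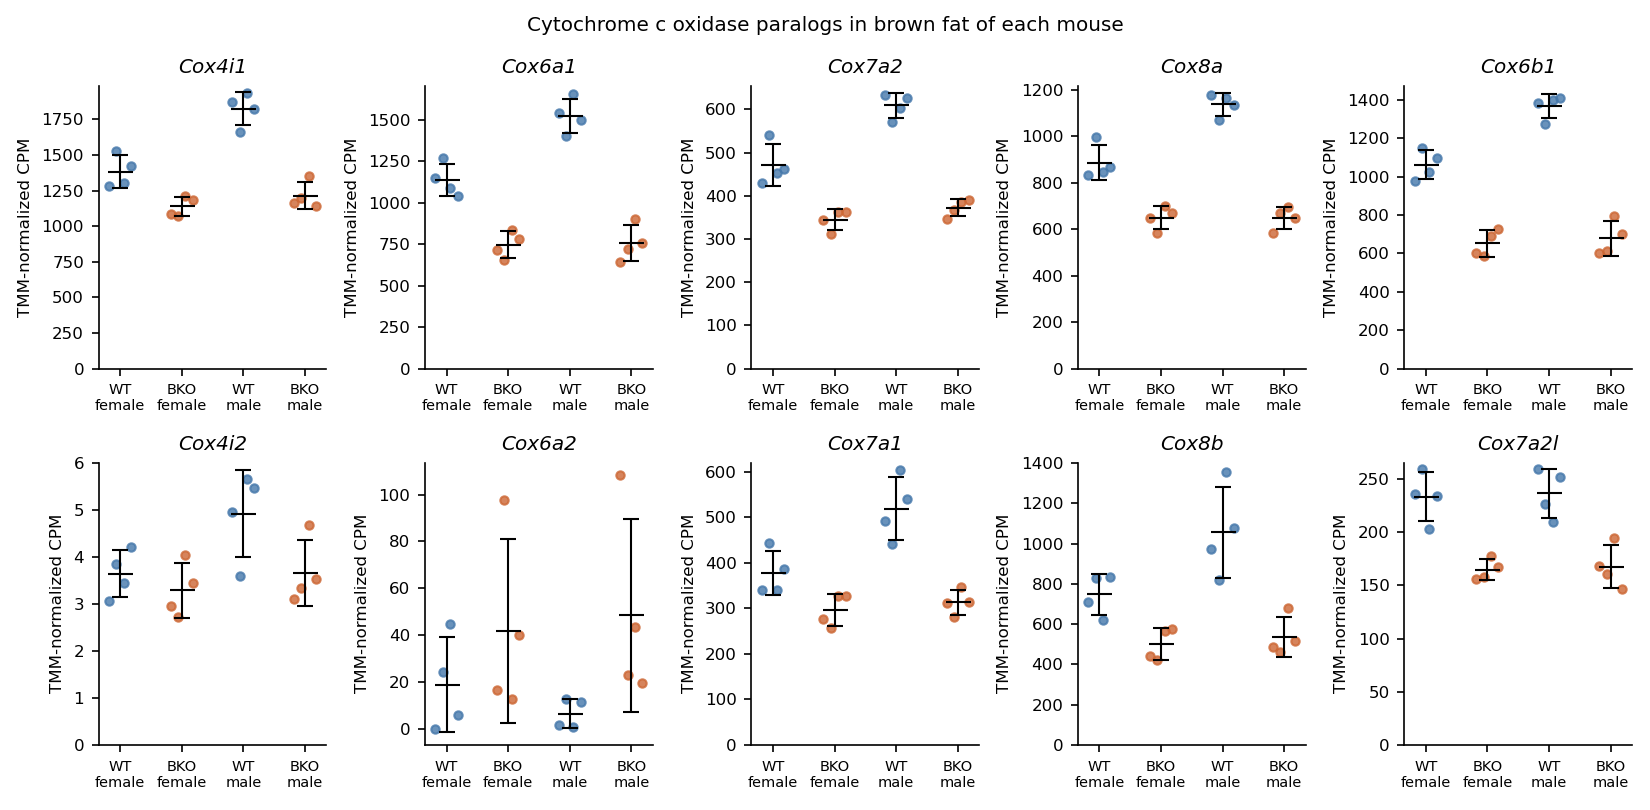
TMM-normalized CPM (vertical axes, linear, each panel with its own scale) of the 10 paralogs in 4 WT female, 4 OPA1 BKO (BKO) female, 4 WT male and 4 OPA1 BKO male mice. Points are mice, and the bar with whiskers is the mean ± SD of 4 mice. Every OPA1 BKO mouse lies below every WT mouse for Cox6a1, Cox6b1, Cox7a2, Cox7a2l and Cox8a on this scale, and Cox6a2 ranges from 0.0568 to 108 CPM.

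Cox6b1, whose product sits on the intermembrane face of the enzyme, changed most among the paralogs that fell. It was at 977, 1212 and 1411 CPM (lowest, median and highest of 8 mice) in the WT mice, against 585, 652 and 796 CPM after OPA1 deletion, and the groups did not overlap. The log2 fold change was -0.86 ± 0.083 (SE, adjusted p = 1.0e-06). Cox6a1, the ubiquitous form of subunit VIa, was at 1043, 1335 and 1653 CPM in the WT mice, against 640.4, 739 and 900.2 CPM after OPA1 deletion, again without overlap. Its log2 fold change was -0.81 ± 0.094 (SE, adjusted p = 6.2e-06).

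Cox8a, the ubiquitous form of the small subunit VIII, was at 831, 1033 and 1178 CPM in the WT mice, against 583, 657 and 699.9 CPM after OPA1 deletion. Cox7a2, the ubiquitous form of subunit VIIa, was at 429, 556 and 634 CPM in the WT mice, against 311, 362 and 391 CPM after OPA1 deletion. Cox7a2l was at 203, 235 and 259 CPM in the WT mice, against 146, 164 and 195 CPM after OPA1 deletion. In none of these 3 genes did the groups overlap, and the log2 fold changes were -0.63 ± 0.077 for Cox8a, -0.58 ± 0.069 for Cox7a2 and -0.50 ± 0.071 for Cox7a2l (SE). In all, 5 of the 10 paralogs were lower in every OPA1 BKO than in every WT mouse, against 4.89% of all genes, and all 5 belong to the ubiquitous group.

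Cox4i1, the ubiquitous form of the largest nuclear subunit, fell least among the 8. It was at 1280.1, 1597 and 1938 CPM in the WT mice, against 1072, 1175 and 1353 CPM after OPA1 deletion, so that the ranges met between 1280.1 and 1353 CPM. The log2 fold change was -0.43 ± 0.074 (SE, adjusted p = 0.00023). The gene overlaps Emc8 on the opposite strand and Gm20388 on the same strand, and 12.9% of its 31-base words are shared with other genes.

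The restricted paralogs of brown fat changed by about as much as their ubiquitous counterparts. Cox8b was at 621, 831 and 1356 CPM in the WT mice, against 422, 500.2 and 682 CPM after OPA1 deletion. WT mice were widely spread and the groups overlapped. The log2 fold change was -0.78 ± 0.13 (SE, adjusted p = 0.00016). Cox7a1 was at 340.0, 442 and 603 CPM in the WT mice, against 256, 312 and 347 CPM after OPA1 deletion, with the highest OPA1 BKO mouse just above the lowest WT mouse. Its log2 fold change was -0.54 ± 0.097 (SE, adjusted p = 0.00036). Cox4i2 was scarce, at 3.06, 4.03 and 5.64 CPM in the WT mice, against 2.71, 3.39 and 4.68 CPM after OPA1 deletion, and the groups overlapped over most of their range. All 6 ubiquitous paralogs and 2 of the 4 restricted ones thus passed the test. In bulk tissue, fewer cells of a type and less RNA per cell cannot be told apart.

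The direction of these differences depended on the scale. With counts scaled by library size alone, the median log2 fold change of all genes moved to 0.57, and only Cox6a1 (log2 fold change -0.26) and Cox6b1 (-0.30) were called lower, while Cox4i1, Cox4i2, Cox7a1 and Cox7a2l had positive values of 0.02 to 0.26. On log2 of TPM (transcripts scaled to a common total after correction for length) plus 0.5, tested with limma, the median of all genes was 0.81 and every paralog had a positive value, from 0.12 for Cox6b1 to 0.63 for Cox4i2 and 3.65 for Cox6a2. After the median of all genes was subtracted, 9 of 10 paralogs lay below 0 under each of the 3 scalings, with Cox6a2 above it. The relative values were -0.87, -0.87 and -0.70 for Cox6b1 and -0.44, -0.45 and -0.28 for Cox4i1 with TMM, library size and TPM. Relative to the typical gene the 8 paralogs fell, and relative to the whole library, by its size alone, Cox6a1 and Cox6b1 did. Over all genes, calls were 3157 lower and 3255 higher with TMM, 373 lower and 10869 higher with library size, and 118 lower and 13480 higher with TPM.

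**Figure D2:**
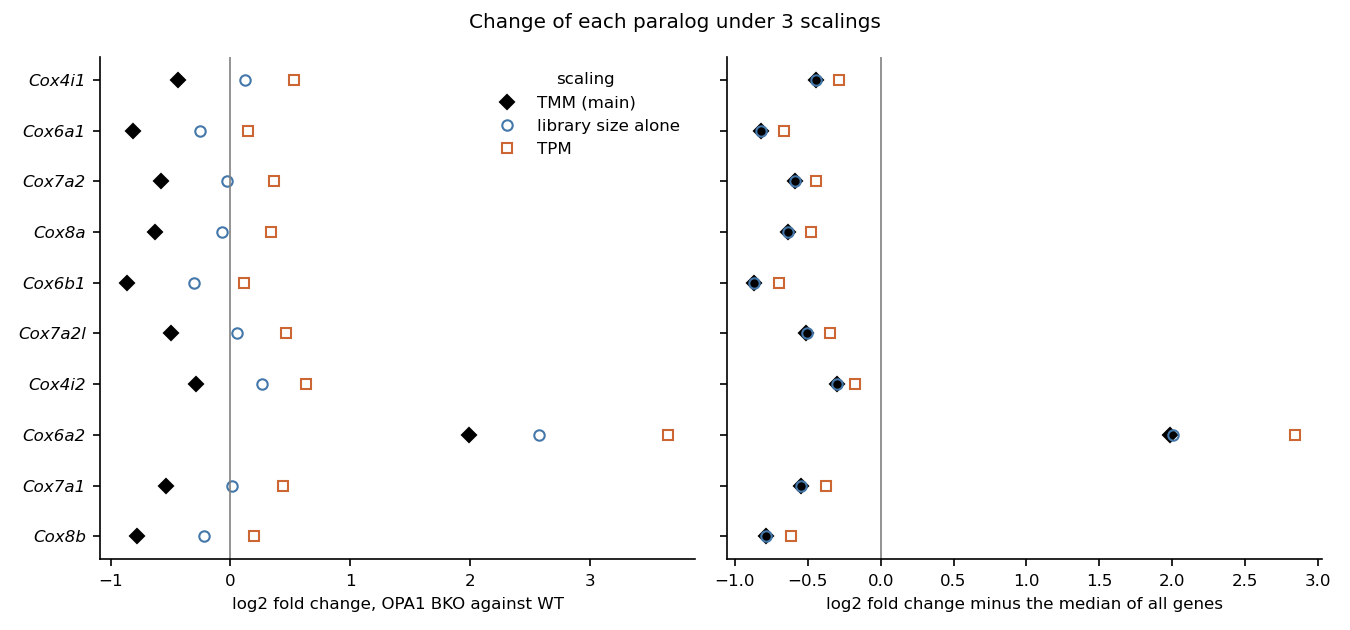
Log2 fold change of the 10 paralogs in OPA1 BKO against WT mice (8 each) under 3 scalings, as fitted (left) and after subtraction of the median of all genes (right). Filled diamonds are TMM, open circles are library size alone and open squares are log2(TPM + 0.5). On the left the signs of most paralogs differ between scalings, and on the right 9 of 10 lie below 0 under each.

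TPM divides counts by transcript length, so that levels can be set beside each other within a mouse. On this scale Cox8b was the most abundant paralog in WT BAT, at 3768 ± 718 TPM (SD, n = 8), and it exceeded Cox6a1, the next, in 8 of 8 mice. Cox6a1 (2713 ± 309 TPM) and Cox6b1 (2595 ± 290.1 TPM) did not differ beyond their spread, with Cox6a1 the higher in 5 of 8 mice. A non-coding form of Cox6b1 with a retained intron took 9.97% to 36.0% of its TPM in WT mice. Its effective length is only 206 bases, and the place of Cox6b1 in this order rests in part on it. Cox4i1 (2321 ± 271 TPM), Cox8a (2207 ± 219 TPM) and Cox7a1 (1597 ± 232 TPM) followed, each overlapping its neighbour in range although higher than it in 8 of 8 mice. Cox7a2 (941 ± 109 TPM) and Cox7a2l (214 ± 23.8 TPM) stood below without overlap. Cox6a2 (20.98 ± 26.6 TPM) and Cox4i2 (6.33 ± 1.23 TPM) were the scarcest and overlapped each other.

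In OPA1 BKO BAT the order of TPM levels was similar, with Cox4i1 now in the second place. Cox8b stood at 4284 ± 478 TPM, Cox4i1 at 3335 ± 204 TPM, Cox6a1 at 3002 ± 264 TPM, Cox6b1 at 2813 ± 345 TPM and Cox8a at 2780.3 ± 195 TPM (SD, n = 8). Cox6b1 and Cox8a did not differ beyond their spread, each the higher in 4 of 8 mice. The non-coding form of Cox6b1 took 16.3% to 36.2% of its TPM in OPA1 BKO mice. Cox7a1 (2149 ± 143 TPM), Cox7a2 (1211 ± 90.5 TPM), Cox7a2l (295 ± 19.6 TPM), Cox6a2 (143 ± 121 TPM) and Cox4i2 (10.03 ± 1.52 TPM) came after. The Cox8b transcript is only 360 bases long, with an effective length of 197 bases in the deposited files, so its TPM rests on a larger length correction than that of the other paralogs.

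Ratios within a mouse do not depend on the scaling between mice, and they were used to compare restricted with ubiquitous forms. Of the TPM of the Cox8 pair, Cox8b made up 58.5%, 62.1% and 68.7% (lowest, median and highest of 8 mice) in WT and 57.3%, 60.7% and 65.5% in OPA1 BKO mice. The log2 ratio of Cox8b to Cox8a changed by -0.14 ± 0.092 (SE, exact two-sided permutation p = 0.16, n = 8 and 8). Cox7a1 made up 60.8%, 62.7% and 66.6% of its pair in WT and 61.8%, 64.3% and 65.4% in OPA1 BKO mice, and the log2 ratio of Cox7a1 to Cox7a2 changed by 0.07 ± 0.052 (SE, exact permutation p = 0.19). The groups overlapped in both ratios, and neither passed the test with all mice. Without WT male 11 the change for Cox7a1 was 0.11 (exact permutation p = 0.027).

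Cox4i2 gave only 0.221% to 0.305% of the TPM of its pair in WT mice, against 0.258% to 0.353% after OPA1 deletion. The log2 ratio of Cox4i2 to Cox4i1 changed by 0.15 ± 0.081 (SE, exact permutation p = 0.096). Cox6a2 gave 0.00388%, 0.515% and 3.15% of its pair in WT and 1.20%, 3.05% and 11.8% in OPA1 BKO mice, and the log2 ratio of Cox6a2 to Cox6a1 rose by 3.93 ± 1.21 (SE, exact permutation p = 0.0022). Of the 4 ratios tested, the last alone passed an unadjusted threshold of 0.05. It rose by 4.50 in males (exact permutation p = 0.029, n = 4 and 4) and was 3.37 higher in OPA1 BKO than in WT females (exact permutation p = 0.17, n = 4 and 4). The change of a ratio did not differ detectably between the sexes in any pair, with exact permutation p-values of 0.46 to 0.93 for sex labels permuted within genotype.

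**Figure D3:**
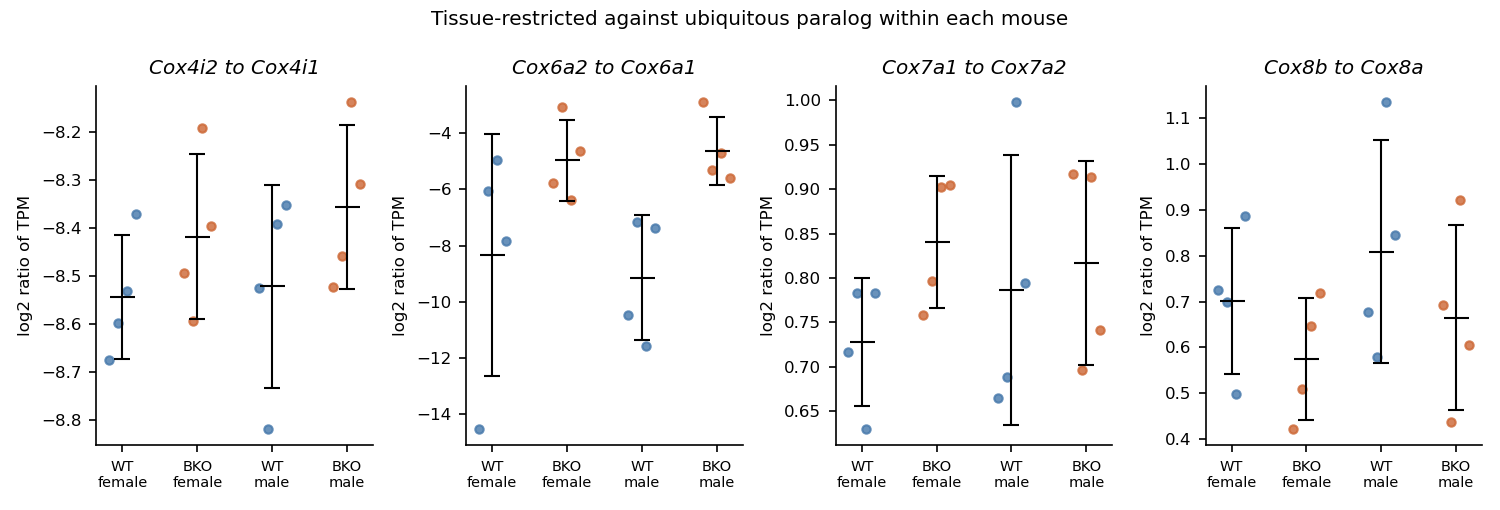
Log2 ratio of the TPM of the restricted to that of the ubiquitous paralog (vertical axes, each panel with its own scale) in 4 mice of each group of genotype and sex, BKO standing for OPA1 BKO. Points are mice, and the bar with whiskers is the mean ± SD. The Cox7a1 and Cox8b ratios overlap between genotypes, and the Cox6a2 ratio rises by 3.93 on the log2 scale over both sexes.

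Cox6a2, which encodes the heart and skeletal muscle form of subunit VIa, was the one paralog with a higher mean level in OPA1 BKO mice on the TMM scale. It was at 0.0568, 8.54 and 44.8 CPM in the WT mice, against 12.8, 31.4 and 108 CPM after OPA1 deletion. The groups overlapped, and Cox6a2 was also the paralog with the widest spread within a group. The spread followed skeletal muscle RNA. The summed level of 16 skeletal muscle markers, such as Acta1 and Ckm, spanned 83.1 to 10340 CPM across WT libraries, and 50.9 to 23990 CPM across those of OPA1 BKO mice. The median log2 fold change of these markers was 1.44, and their adjusted p-values lay between 0.21 and 0.49.

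Within WT mice, log2 of Cox6a2 rose with log2 of this sum, with Pearson's r = 0.993 (exact permutation p = 2.5e-05) and Spearman's rho = 1.00 (exact permutation p = 5.0e-05, n = 8). Within OPA1 BKO mice r was 0.900 (exact permutation p = 0.0030) and rho 0.881 (exact permutation p = 0.0072, n = 8). Without the 2 mice farthest from the median sum, r was 0.998 in WT and 0.983 in OPA1 BKO mice. The relation was computed for the 4 restricted paralogs in both genotypes, 8 relations in all, and after Benjamini-Hochberg adjustment the p of r was 0.00020 and 0.012 and that of rho 0.00040 and 0.029 for Cox6a2 in WT and OPA1 BKO mice. Cox4i2, Cox7a1 and Cox8b gave r between -0.35 and -0.07, with adjusted p-values of 0.86. Without the 2 mice farthest from the median sum, their r was -0.65, -0.51 and -0.66 in WT mice and -0.18, -0.085 and -0.045 in OPA1 BKO mice, so the WT values rest on those mice. Each sex held 4 mice of a genotype, too few for the relation within sexes.

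The Cox6a2 levels of the mice with little muscle RNA are set out here as a description. Of the 16 mice, 4 WT and 4 OPA1 BKO mice, 2 of each sex and genotype, had a marker sum under 2000 CPM, a limit chosen after the values were seen. The WT mice of this kind had Cox6a2 at 0.0568 (female 1), 5.74 (female 13), 1.37 (male 3) and 0.686 CPM (male 11), at marker sums of 83.1, 1538, 545 and 305 CPM. The OPA1 BKO mice had Cox6a2 at 16.5 (female 2), 12.8 (female 10), 22.9 (male 8) and 19.6 CPM (male 16), at marker sums of 1233, 50.9, 232 and 998 CPM. Every OPA1 BKO mouse of this kind was thus above every WT mouse of this kind. The share of all genes that separated in this way over 4 against 4 mice was not computed. The lowest marker sum of all belonged to an OPA1 BKO mouse. In that mouse, female 10, Acta1 was at 0.592 CPM while Cox6a2 had 260 estimated counts, against 1 count in WT female 1, where Acta1 was at 3.75 CPM.

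Since the limit was set with these values known, Cox6a2 is given here as a description, with no test. Over these 8 mice its log2 fold change was 3.16 ± 0.74 (SE), beside a median of 0.11 for the 16 muscle markers, in a fit that called 11.5% of all genes higher. Its means were 1.96 ± 2.57 CPM in WT mice and 17.95 ± 4.28 CPM after OPA1 deletion (SD, n = 4), a difference of 15.99 CPM. Over all 16 mice the means were 12.6 ± 15.4 and 45.1 ± 37.4 CPM (SD, n = 8), so the difference was larger on the log2 scale and smaller in CPM without the mice rich in muscle RNA. The log2 ratio of Cox6a2 to Cox6a1 was 5.32 ± 1.40 (SE) higher after OPA1 deletion in the 8 mice. In the mice above the limit Cox6a2 per 1000 CPM of muscle markers was 3.85 to 4.33 CPM for WT, against 4.51 to 6.71 CPM after OPA1 deletion. The same 8 paralogs as in all mice were called lower over the 8 mice with little muscle RNA, against 10.3% of all genes, with log2 fold changes from -0.47 for Cox4i1 to -0.93 for Cox8b. In these 8 mice the log2 ratio of Cox8b to Cox8a differed by -0.33 ± 0.12 (SE), and its values did not overlap between genotypes. Over all 16 mice the difference was -0.14 ± 0.092 (SE), and the values overlapped. How often other ratios separate in the 8 mice was not computed.

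**Figure D4:**
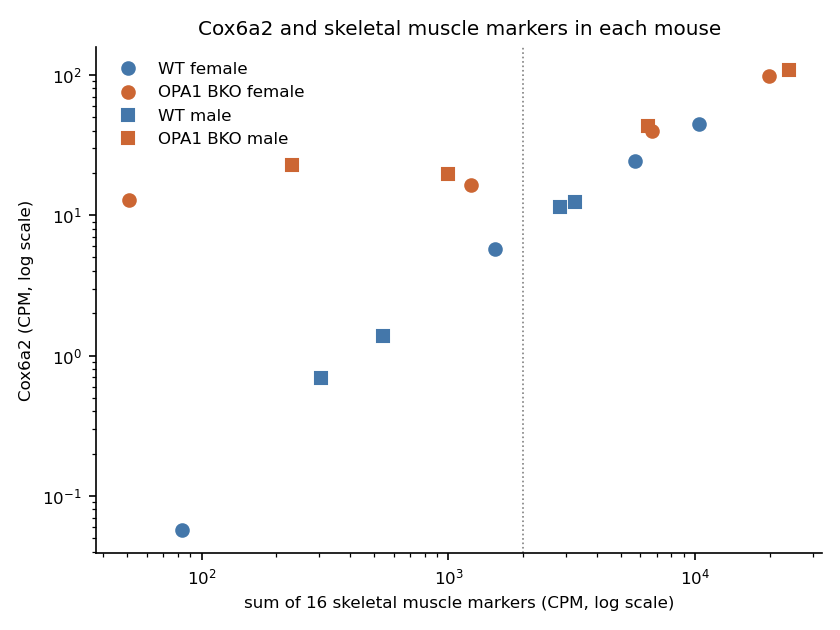
Cox6a2 (vertical axis, CPM, log scale) against the sum of 16 skeletal muscle markers (horizontal axis, CPM, log scale) in each of 16 mice. Blue is WT and orange OPA1 BKO, circles are females and squares males, and the dotted line stands at 2000 CPM. Left of the line the 4 OPA1 BKO mice lie at 12.8 to 22.9 CPM and the 4 WT mice at 0.0568 to 5.74 CPM.

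The fall of the paralogs was measured in each sex. In females, 7 of 10 paralogs were lower, against 9.03% of all genes (8.96% were higher), with Cox7a1 just outside the threshold (log2 fold change -0.35 ± 0.12 SE, adjusted p = 0.058). In males, 8 of 10 were lower, against 16.9% of all genes (17.9% were higher). The log2 fold changes in males and females were -1.01 and -0.61 for Cox6a1, -1.01 and -0.71 for Cox6b1, -0.81 and -0.45 for Cox8a, -0.98 and -0.58 for Cox8b and -0.73 and -0.35 for Cox7a1, on the TMM scale. Cox7a2l had equal values, -0.50 in both sexes. The 2 paralogs outside the threshold over all mice stayed outside it in each sex, with 2.89 ± 1.12 (SE, adjusted p = 0.057) in males and 1.16 ± 1.04 (adjusted p = 0.48) in females for Cox6a2, and with -0.43 (adjusted p = 0.090) and -0.15 (adjusted p = 0.64) for Cox4i2.

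No paralog was called by edgeR for the interaction of genotype and sex, a test that called 0.115% of all genes, and 4 had an unadjusted p under 0.05. They were Cox8a (log2 difference -0.36 ± 0.12 SE), Cox6a1 (-0.41 ± 0.16 SE), Cox4i1 (-0.31 ± 0.13 SE) and Cox7a1 (-0.38 ± 0.17 SE), with adjusted p-values of 0.22 to 0.36. The share of all genes under the unadjusted threshold was not counted. DESeq2 called Cox8a (adjusted p = 0.048), in a test that called 354 genes, against 18 with edgeR. As an example of levels in the 4 groups, Cox8a was at 831 to 996 CPM in WT females and 1069 to 1178 CPM in WT males, against 583 to 699.9 CPM and 583 to 693 CPM in OPA1 BKO females and males.

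Every WT male was above every WT female for 5 paralogs (Cox4i1, Cox6a1, Cox6b1, Cox7a2 and Cox8a), against 4.45% of all genes, and this held for no paralog in OPA1 BKO mice, against 8.11% of all genes. In WT mice the log2 difference of males minus females was 0.40 ± 0.090 for Cox4i1, 0.37 ± 0.086 for Cox7a2 and 0.50 ± 0.17 for Cox8b (SE), and 8 of 10 paralogs had an unadjusted p under 0.05. The share of all genes under this unadjusted threshold was not counted. No paralog passed the adjustment by edgeR (lowest adjusted p = 0.067), which called 0.16% of all genes higher in WT males. In OPA1 BKO mice the same differences were 0.09, 0.11 and 0.10, and no paralog had an unadjusted p under 0.05. None was called, whereas 402 of all genes (2.57%) were called higher and 200 lower in OPA1 BKO males. This comparison of the sexes was added after the values were seen.

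**Figure D5:**
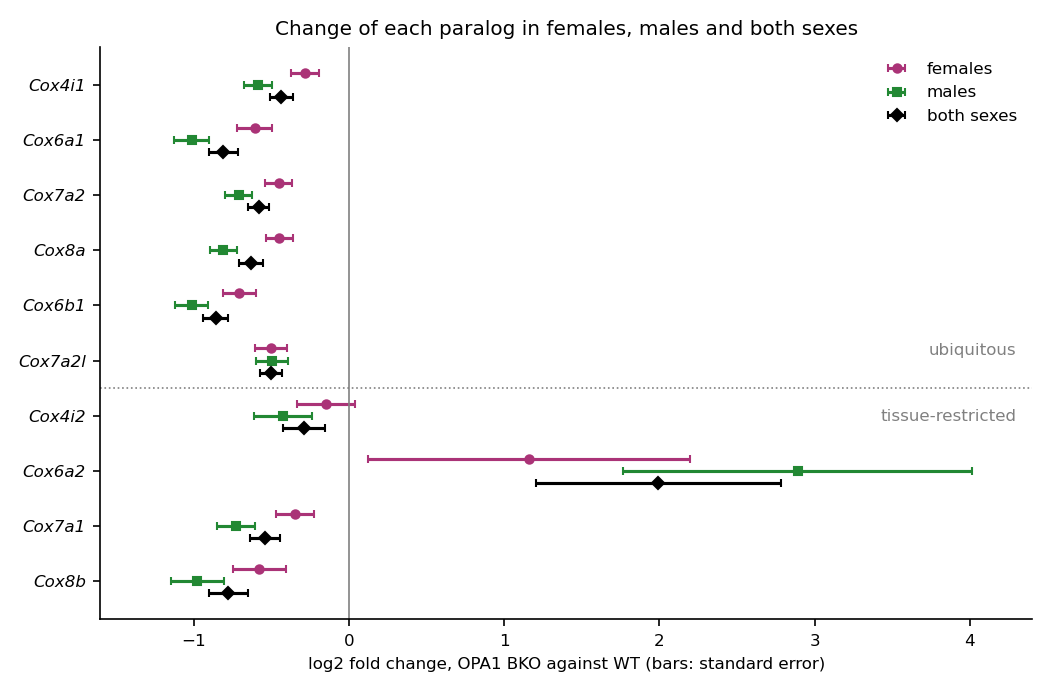
Log2 fold change of each paralog in OPA1 BKO against WT mice on the TMM scale (horizontal axis), with standard errors from edgeR, in females (circles), males (squares) and both sexes (diamonds). Ubiquitous paralogs stand above the dotted line and restricted ones below it. The estimates of males lie further below 0 than those of females for the 8 paralogs that fell, except for Cox7a2l with -0.50 in both. Over both sexes, 9 paralogs lie below 0, Cox4i2 among them, and of these 9 values 4 turn positive with library size alone and 9 with TPM as the scale.

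The share of a transcript in its gene did not overlap between genotypes for 2 paralogs, in a comparison added after other values were seen. Of the 10 paralogs, 6 had alternative transcripts with a mean of at least 10 estimated counts, 13 in all, and 2 of the 13 took a smaller share of their gene's TPM in every OPA1 BKO than in every WT mouse, against 0.27% of 21116 alternative transcripts of all genes. None took a larger share in every OPA1 BKO mouse, against 0.327% of all. The first belongs to Cox7a2l, whose main transcript in GENCODE M21 has 3 exons and 333 coding bases and whose alternative transcript has 4 exons and 402 coding bases. The 4-exon form took 8.72%, 9.62% and 12.3% of Cox7a2l (lowest, median and highest) in WT and 4.17%, 5.16% and 6.97% in OPA1 BKO mice, without overlap, at a mean of 295 estimated counts.

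The longer form holds an exon 3 that the other lacks, which lies at chr17:83503931-83503999 on the minus strand of GRCm38, is entirely coding, and has 69 bases, a multiple of 3. The forms also end at different positions in GENCODE M21 (83501918 and 83501934). The deposited files name an earlier version of both, with lengths of 1078 and 1147 bases, so the structure given is that of M21. The exon is printed as the coding difference between the forms.
Cox7a2l exon 3: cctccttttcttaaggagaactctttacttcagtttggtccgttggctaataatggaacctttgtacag
The second belongs to Cox7a1, where a form with 267 instead of 240 coding bases took 2.23%, 2.48% and 2.94% of the gene in WT and 1.59%, 1.87% and 2.20% in OPA1 BKO mice. Both shares come from the way Kallisto divided reads between forms that share most of their bases. A non-coding form of Cox7a2 also had a smaller median share, 5.80% in OPA1 BKO against 9.02% in WT mice, but its ranges of 4.34% to 8.51% and 7.54% to 12.03% overlapped.

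Upstream sequences show how differently the genes that fell together begin. RefSeq promoters on GRCm38.p6 were found for 7 of 10 paralogs, all but Cox4i1, Cox4i2 and Cox6a2, and the 250 bases before the start site were searched on both strands. CG dinucleotides numbered 26 in Cox6a1, 14 in Cox6b1 and Cox7a2, 13 in Cox7a2l and 11 in Cox8a, but 4 in Cox7a1 and 1 in Cox8b, against a median of 6 in 32851 promoters. The restricted paralogs thus stood below this median and the ubiquitous ones above it. Sequences of the Cox7a and Cox8 pairs, and of Cox6a1, are given 5′ to 3′ on the strand of the gene, 150 bases each and ending before the annotated gene, with the motifs searched in capitals where they fall within the stretch.
Cox7a2 (chr9:79759879-79760028, minus strand): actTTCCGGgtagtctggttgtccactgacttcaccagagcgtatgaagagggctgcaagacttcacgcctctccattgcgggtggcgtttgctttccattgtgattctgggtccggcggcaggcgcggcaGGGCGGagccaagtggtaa
Cox7a1 (chr7:30183994-30184143, plus strand): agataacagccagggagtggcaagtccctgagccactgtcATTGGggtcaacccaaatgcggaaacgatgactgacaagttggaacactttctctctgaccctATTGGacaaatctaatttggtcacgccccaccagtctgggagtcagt
Cox8a (chr19:7217617-7217766, minus strand): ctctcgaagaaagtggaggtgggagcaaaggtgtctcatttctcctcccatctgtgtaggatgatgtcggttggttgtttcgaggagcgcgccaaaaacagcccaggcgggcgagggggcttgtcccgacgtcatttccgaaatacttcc
Cox8b (chr7:140900447-140900596, minus strand): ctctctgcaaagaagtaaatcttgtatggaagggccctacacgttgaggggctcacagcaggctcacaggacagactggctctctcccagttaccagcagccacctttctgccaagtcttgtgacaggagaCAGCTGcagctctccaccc
Cox6a1 (chr5:115348982-115349131, minus strand): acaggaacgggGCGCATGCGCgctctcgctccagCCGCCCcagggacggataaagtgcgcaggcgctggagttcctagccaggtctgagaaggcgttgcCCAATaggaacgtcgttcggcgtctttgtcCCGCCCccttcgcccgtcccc

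The letters searched were GCATGCGC, the core bound by NRF1, in 2.26% of all promoters, CCGGAA, the core of ETS factors such as GABPA, in 12.03%, AAGGTCA, a core of estrogen-related receptors, in 4.08%, and AAGATGGC, the core of YY1, in 1.56%. The others were CAGCTG, an E-box, in 13%, TATAAA, the TATA box, in 12.37%, CCAAT in 33.85% and GGGCGG, the Sp1 box, in 32.74%. The NRF1 core stood in Cox6a1, on both strands with overlapping letters, 160 bases before the start. The ETS core stood in Cox6a1, Cox6b1 and Cox7a2, and the Sp1 box in Cox6a1, Cox7a2 and Cox7a2l. CCAAT stood in Cox6a1, Cox6b1, Cox7a1 and Cox8a (in Cox8a before the stretch shown), and the E-box in Cox8b, 19 bases before its start. The remaining 3 motifs were in none of the 7 windows.

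The genes of 4 paralogs lie on chromosome 7. Cox7a1 (chr7:30184144-30186078, plus strand) and Cox6b1 (chr7:30616861-30626151, minus strand) are 0.431 Mb apart, and Cox6a2 (chr7:128205435-128206387, minus strand) and Cox8b (chr7:140898945-140900446, minus strand) lie far from them. The others stand alone on their chromosomes, Cox4i1 at chr8:120668222-120674207 and Cox4i2 at chr2:152754173-152765037 on the plus strand, and Cox6a1 at chr5:115345642-115348981, Cox7a2 at chr9:79755361-79759878, Cox7a2l at chr17:83501918-83517330 and Cox8a at chr19:7215153-7217616 on the minus strand (GRCm38). No 31-base word was shared between Cox8a, Cox8b, Cox7a1 or Cox4i2 and any other gene, so reads of these forms could be told apart. Cox6a2 overlaps Itgad on the opposite strand, and 6.15% of its words occur elsewhere. Of the Cox7a2l words, 16.6% occur in Gm6969, a pseudogene at a mean of 4.64 TPM, and adding its reads changed no call. Cox6a1 shares 18.5% of its words with other sequences of the annotation.

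The rest of complex IV fell too. All 6 other nuclear subunits tested were lower on the TMM scale (median log2 fold change -0.81), against 20.2% of all genes. Among them were Cox6c (-1.11 ± 0.087 SE), Ndufa4 (-1.08 ± 0.089 SE), Cox7b (-0.92 ± 0.087 SE) and Cox5b (-0.42 ± 0.11 SE). With TPM summed within a mouse, these 6 subunits amounted to 0.573 to 0.631 of the paralogs in WT mice and, after OPA1 deletion, to 0.511 to 0.573, so the ranges met only at their ends. The testis and hypoxia paralogs outside the 10 were scarce. Cox6b2, the testis form of Cox6b1, had means of 5.48 CPM in WT mice and 3.79 CPM after OPA1 deletion (adjusted p = 0.15), Ndufa4l2, a form of Ndufa4 induced by low oxygen, at 9.16 and 7.60 CPM (adjusted p = 0.081), and Cox7b2 and Cox8c did not pass the filter on low counts.

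The catalytic subunits encoded by mitochondrial DNA fell much further. The log2 fold changes were -2.54 ± 0.15 for mt-Co1, -2.49 ± 0.37 for mt-Co2 and -2.77 ± 0.21 for mt-Co3 (SE). The summed TPM of these 3 genes was 6.56, 8.18 and 10.7 times that of the 10 paralogs (lowest, median and highest) in WT and 1.36, 2.37 and 2.98 times in OPA1 BKO mice, a ratio within a mouse that did not overlap between genotypes. The 4 restricted paralogs made up 29.6% to 37.3% of the TPM of the 10 in WT mice, against 31.2% to 35.0% after OPA1 deletion. Libraries were selected for polyadenylated RNA, and mitochondrial transcripts carry short tails, so their level here also depends on capture, the part of which was not tested.

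Assembly factors of complex IV changed less uniformly than the subunits. Of 25 tested, 12 were lower and 2 higher, and the median log2 fold change was -0.18. Over all genes, 20.2% were lower and 20.8% higher. Pet100 (-0.998 ± 0.13 SE), the copper chaperone Cox17 (-0.61 ± 0.081 SE) and Higd1a (-0.55 ± 0.071 SE) were lower, Cox10, which makes heme O for the enzyme, was higher (0.32 ± 0.085 SE), and so was Lrpprc (0.33 ± 0.070 SE), which stabilizes mitochondrial messenger RNAs. Among nuclear subunits of the other complexes, 35 of 36 tested were lower in complex I (median -0.57), 9 of 9 in complex III (median -0.61) and 12 of 17 in complex V (median -0.41), where Atp5g1 (1.08) and Atpif1 (0.50) were higher. The medians of the paralogs and of complexes I and III were thus close.

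Of 16 regulators of respiratory chain genes tested, 8 were higher and 2 lower, against 20.8% and 20.2% of all genes, 6 did not pass the test, and their median log2 fold change was 0.37. Nrf1 had means of 13.9 CPM in WT mice and 29.7 CPM after OPA1 deletion (log2 fold change 1.10 ± 0.085 SE), Gabpa, a subunit of the ETS factor NRF2, at 40.1 and 67.1 CPM (0.74 ± 0.090 SE), and Rbpj, a factor tied to Cox4i2 transcription, at 22.9 and 33.6 CPM (0.56 ± 0.073 SE). Chchd2 (-0.50 ± 0.060 SE) and Cxxc5 (-0.33 ± 0.084 SE), 2 further factors tied to Cox4i2, were lower. Esrra, the estrogen-related receptor alpha, was at 137 and 132 CPM (-0.06, adjusted p = 0.53). Of 14 hypoxia target genes, 5 were lower and 2 higher, with Bnip3 at -0.94 and Vegfa at 0.34.

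Markers of the cells in the tissue are set beside the shares over all genes, 20.2% lower and 20.8% higher. Of 14 brown adipocyte markers, 4 were lower (Adipoq, Fabp4, Cidea and Cpt1b) and 3 higher (Elovl3, Ppara and Pparg), and their median log2 fold change was -0.17, while Ucp1 was at -0.46 ± 0.20 (SE, adjusted p = 0.074). The summed level of the 14 averaged 19376 CPM (SD 2815, n = 8) in WT mice, against 13418 CPM (SD 1852) after OPA1 deletion. Mural cell markers, the cells in which Cox4i2 is known, were lower for 7 of 10, with a median of -0.37 and a summed level of 859 CPM on average (SD 77.3, n = 8) for WT, against 723 CPM (SD 38.9). Endothelial markers were lower for 5 of 8, macrophage markers higher for 9 of 10 (summed level 109 to 157 CPM in WT libraries, against 143 to 575 CPM), lymphocyte markers lower for 3 of 9 and fibroblast markers higher for 6 of 8. The part of these markers in the levels of the paralogs was not tested.

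Genes whose level followed the restricted paralogs most closely from mouse to mouse were found by the correlation of log2 CPM over 16 mice after the mean of each group was removed, among 10388 genes, as a description. Cox7a1 was followed by Uqcrq, Mrps36 and Cox8b (r = 0.932, 0.923 and 0.921), and Cox8b by Romo1, Gm44386 and Rpl19 (r = 0.954, 0.953 and 0.951). Cox4i2 was followed by Prdx5, Cox5b and Edf1 (r = 0.944, 0.940 and 0.937), and Cox6a2 by Rragd, Epdr1 and Got1 (r = 0.928, 0.919 and 0.911). The same measure between Cox8b and Cox4i1 was 0.860, whereas Cox6a2 had values of -0.30 to 0.10 with the other paralogs.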

How the data were processed

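BAT of 16 mice, 4 in each group of genotype and sex given by the labels, was sequenced as stranded poly(A) libraries. The authors quantified transcripts with Kallisto 0.45.0 (per the submitters' processing notes, which name mm10) and deposited, for each transcript, an estimated count, not normalized, and a TPM. Gene counting from alignments, also described, was not analysed here. Of 135308 transcripts, 133284 were matched to 51060 genes through GENCODE M21 without version. Unmatched transcripts, with 0.483% to 0.730% of the counts, were not used.

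The paralogs, the gene lists and the tests were chosen with earlier results of these data known. Per gene, estimated counts were added up, rounded to whole numbers and filtered (filterByExpr, minimum count 10, minimum total 15), which left 15632 genes. TMM factors and the quasi-likelihood test came from edgeR 4.0.16 (R 4.3.3, prior count 0.125), with a term for sex, or with 1 mean per group for effects within sexes, between sexes and the interaction. P-values were adjusted by Benjamini-Hochberg over all genes tested, with a threshold of 0.05. The fit was tested on simulated data. Paralog ratios used TPM with a pseudocount of 0.01 and exact two-sided permutation tests over mice (SciPy 1.17.1), unadjusted over the 4 pairs. The labels name no litters, batches or dates, and p-values measure the spread between these mice. Named genes were the 10 paralogs, genes of the lists where a sentence is about a list, Opa1, and the 3 genes most correlated with each restricted paralog (log2 CPM, prior count 2, mean of at least 5 CPM). Promoter sequences are those of RefSeq on GRCm38.p6. Alternatives were DESeq2 1.42.0, RLE size factors, library size alone, the mitochondrial genome left out, no filter or a mean TPM of at least 1, a fit without sex, counts derived from TPM, limma 3.58.1 on log2(TPM + 0.5), reads of near-identical genes added, each sex alone, each mouse left out and, for ratios, estimated counts, a pseudocount of 0.5 and the most abundant transcript only. Mice with little muscle RNA were compared as an alternative chosen after seeing the data.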

Additional observations from a re-analysis of the deposited data

How the results depend on the processing

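Of the 10 paralogs, 2 were called lower with library size alone and 0 with limma on TPM, where all 10 values were positive, against 8 with TMM. Over all genes, 373 were called lower with library size alone, 118 with limma on TPM and 3157 with TMM. Limma on TPM called 7 paralogs higher, in a test that called 13480 of 15632 genes higher. Cox6a2 was the 1 paralog called higher with DESeq2, with library size alone and with no filter on low counts. These called 3392, 10869 and 3429 of all genes higher. Leaving out each mouse gave 8 to 9 paralogs lower, 0 to 1 higher and 0 for the interaction. For the interaction DESeq2 called 1 paralog, and 354 of all genes. Log2 fold changes turned positive with library size alone for Cox4i1 (0.12), Cox4i2 (0.26), Cox7a1 (0.016) and Cox7a2l (0.057), and with TPM for Cox4i1 (0.53), Cox4i2 (0.63), Cox6a1 (0.15), Cox6b1 (0.115), Cox7a1 (0.44), Cox7a2 (0.37), Cox7a2l (0.46), Cox8a (0.34) and Cox8b (0.20). By construction these scales divide by a whole library whose mitochondrial share differed between genotypes. The part of that share in the shift of all genes was not tested. RLE size factors, the mitochondrial genome left out and counts derived from TPM kept every direction. The log2 ratio of Cox6a2 to Cox6a1 changed by 3.37 in females alone (exact permutation p = 0.17, 4 against 4 mice), by 3.11 to 4.48 with a mouse left out. In mice with little muscle RNA, a subset chosen after seeing the data, the ratio of Cox7a1 to Cox7a2 changed by -0.016 and that of Cox8b to Cox8a by -0.33, and the cause was not tested. With a mouse left out, the ratio of Cox7a1 to Cox7a2 changed by 0.053 to 0.106, and the differences between the sexes ranged from -0.059 to 0.115 for Cox4i2, from -0.00015 to 3.19 for Cox6a2 and from -0.103 to 0.092 for Cox8b. No paired analysis was possible because no mouse number is shared between groups. Cox4i2 and Cox6a2 were scarce, and 1 estimated count of Cox6a2 in WT female 1 sets the lower end of its ratios.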
